A study of Drosophila melanogaster with 6 samples.

Results

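Heterochromatin is the part of the genome that stays condensed through the cell cycle. It is built mainly of repeated sequence around the centromeres and is marked by methylated histone H3 and by HP1 proteins. Active genes are sparse in it, and many of those known in Drosophila melanogaster are essential genes whose expression depends on their heterochromatic surroundings. PARP1, the enzyme that builds poly(ADP-ribose) chains on chromatin proteins, is itself encoded in heterochromatin, and in flies it has been tied to the loosening of chromatin at active genes and to the silencing of repeats.

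The genes described here lie on the assembled heterochromatic scaffolds 2LHet, 3LHet, 3RHet and XHet or on U, the scaffold of unplaced sequence, in the dm3 genome build. A gene was kept if its FPKM (fragments mapped, scaled to transcript length and library size, summed over its annotated transcripts) averaged at least 1 over all libraries, and Parp1 was left out. This gave 49 genes of the 315 on these scaffolds and of 14012 genes in the whole table, where 7308 passed the same filter. A further 266 genes of the scaffolds stayed under the filter, and 192 of those were listed at 0 in every library. On 3LHet 13 of 57 genes passed, on XHet 7 of 12, on 3RHet 6 of 52, on 2LHet 2 of 7 and on U 21 of 187. The filter falls among weakly expressed models: the lowest kept were CG41373 (mean 1.11 FPKM), CG42200 (1.22 FPKM) and CG40506 (1.47 FPKM), and the highest left out were CR40068 (0.966 FPKM), CG41053 (0.842 FPKM) and CG41126 (0.746 FPKM).

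RNA-seq was made from S2-DRSC cells, a line derived from late embryos, at passages 10 to 15. There were 3 groups of 2 libraries. In the PARP1 knockdown group (PARP1 KD) PARP1 mRNA was targeted with double-stranded RNA, in 100 or 500 units that the labels give both as ng and as µg. In the PJ34 group cells received PJ34, a small-molecule inhibitor of the PARP catalytic domain, at 10 or 0.3 µM. The control group is labelled only as control. Since the table's column names carry no dose, the libraries of a group are called 1 and 2 as there, and the spread within a treated group holds both the dose and the replicate. The study describes its RNA-seq controls as cells without treatment and names a LacZ RNA as the non-targeting control of its knockdowns, and the labels do not say that a sequenced control received it. On that description the loss of PARP1 and the exposure to double-stranded RNA cannot be told apart. The study calls the libraries of a group biological replicates, the labels give treated libraries different amounts and name no separate cultures, and the p-values measure the spread between these libraries. All cells come from 1 line.

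Summed FPKM per library was 876448 and 821057 in PARP1 KD, 851662 and 994251 in PJ34, and 714707 and 860052 in controls, and the relative sequencing depth inferred from the smallest steps of low values lay between 0.883 and 1.11 of that of control library 1. For transcripts of 1000 to 2000 bases 1 FPKM stood for about 27.2 fragments. Parp1 itself had 16.7 and 10.3 FPKM in PARP1 KD, 39.3 and 50.2 FPKM in PJ34, and 51.6 and 29.9 FPKM in controls. Of 11 hemocyte-type markers of S2 cells 9 averaged at least 1 FPKM, while Hml and NimC1 did not, and of 17 markers of other cell types 3 did (elav, brp and Mlc2). The summed FPKM of the S2 markers was 3807 and 3379 in PARP1 KD, 2014 and 649.5 in PJ34, and 2635 and 4241 in controls. PJ34 library 2 stood apart from the others: the median FPKM of the other 7259 genes was 4.43 in it and 13.4 in PJ34 library 1, against 15.6 and 12.3 in PARP1 KD and 21.7 and 15.7 in controls. With 2 libraries against 2 the smallest 2-sided p an exact permutation test can give is 0.33, so single values were compared by their overlap and all genes by limma's moderated test on log2(FPKM + 1), with Benjamini-Hochberg adjustment over 7308 genes. Fold changes on that scale understate those of weakly expressed genes.

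The 49 genes were of 2 kinds. A current gene symbol was found for 28 of them in the RefSeq annotation, 27 protein coding genes and the pseudogene CR40354. The other 21 were older gene models without a current symbol, 17 of them on U and 2 each on 3LHet and 3RHet, with a median span of 496 bases (147 to 17867). This split was made after the values had been seen. The genes with a symbol (the named genes) were well expressed, with a median mean of 56.0 FPKM against 2.86 FPKM for the models without a symbol, and 14.7 FPKM for the other genes. Their median transcript length was 1430 bases (364 to 5311), against 1868 bases for all genes tested. No gene of the 49 was listed at 0 in any library. By position 17 of the 49 (34.7%) overlapped another annotated gene, as did 36.5% of all genes tested, and because the counting is not stated to use strand, reads of overlapping genes may be split.

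**Figure D1:**
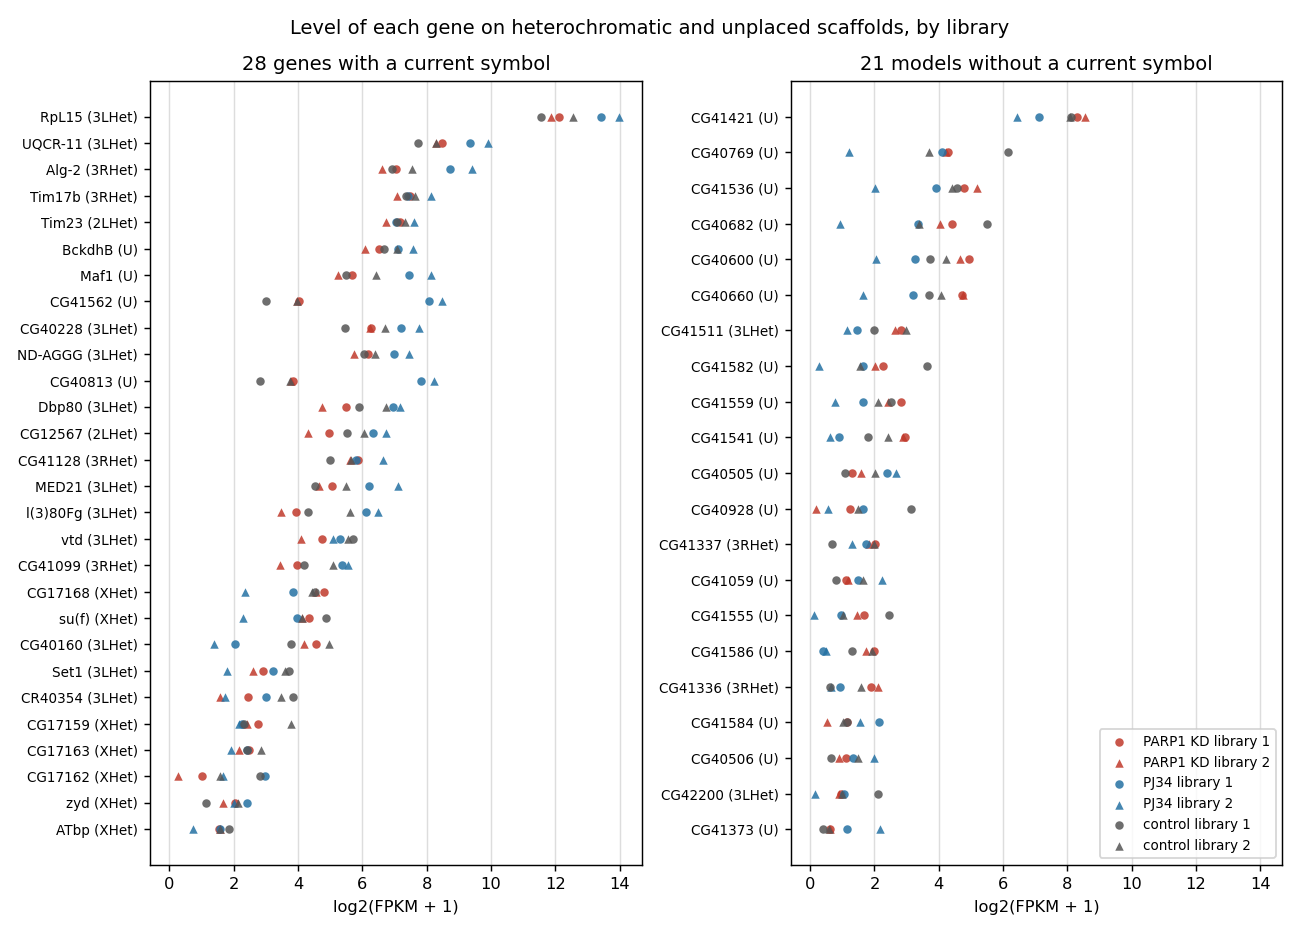
Level of each of the 49 genes in each library, as log2(FPKM + 1), with the dm3 scaffold in brackets; circles are library 1 and triangles library 2 of PARP1 KD (red), PJ34 (blue) and control (grey). In the left panel the PJ34 symbols of most strongly expressed genes lie to the right of the control symbols, and in the right panel the PJ34 symbols of CG41421, CG41536, CG40600 and CG40660 lie to the left of them.

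The highest of all was RpL15 (chr3LHet:2397795-2399000), which encodes a protein of the large ribosomal subunit. It had 4477 and 3778 FPKM in PARP1 KD, 11000.4 and 16304 FPKM in PJ34, and 3018 and 6013 FPKM in controls. The PJ34 libraries lay above all others, and the PARP1 KD libraries lay between the controls. RpL15 alone carried most of the FPKM of the whole set: the 49 genes held 0.730% and 0.664% of all FPKM in PARP1 KD, 1.67% and 2.09% in PJ34, and 0.664% and 0.953% in controls. Without RpL15 the shares were 0.219% and 0.203% in PARP1 KD, 0.378% and 0.445% in PJ34, and 0.242% and 0.254% in controls, so the PJ34 shares were the highest also without it.

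Setting PARP1 KD beside controls asks what knockdown of the enzyme does to these genes. None of the 49 passed the adjusted threshold, as was so for all genes tested (0% called). At an unadjusted p under 0.05 limma gave 6 of the 49, all lower in PARP1 KD, and 209 of all genes. Both PARP1 KD libraries lay above both controls for 10 of the 49, where the share over all genes tested was 10.5%, and below both for 11 of the 49, against 34.9%. Of these, CG41336 among the higher reached a mean of 1 FPKM only through PARP1 KD, and CG42200 among the lower only through the controls. The filter thus favoured the direction of both. The median difference over the 49 was −0.16 on the log2 scale (−1.66 to 0.90), with −0.28 over all genes, and it was 0.12 without control library 2. Centring each library on its median turned the median over the 49 to 0.24, and quantile normalization to 0.06, so the set had no direction that held under every scaling.

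Of the 5 genes of transcription and chromatin 2 (vtd and Set1) were lower in both PARP1 KD libraries without overlap, and of the 3 of translation and RNA 1 (Dbp80), shares near that of all genes, while MED21, Maf1, ATbp, RpL15 and su(f) overlapped. The gene vtd (chr3LHet:2243570-2265363) encodes Rad21, the cleavable subunit of cohesin, which holds sister chromatids together. It had 25.9 and 16.1 FPKM in PARP1 KD, against 51.4 and 45.8 FPKM in controls. The ranges did not overlap and the ratio of means was 0.431, but the log2 difference of −1.21 (SE 0.50) had an adjusted p of 0.9996 in limma. Dbp80 (chr3LHet:2409840-2544176), a DEAD-box RNA helicase, had 43.8 and 25.9 FPKM in PARP1 KD, against 58.1 and 107 FPKM in controls. Set1 (chr3LHet:594457-600641), a methyltransferase for lysine 4 of histone H3, had 6.49 and 5.05 FPKM in PARP1 KD, against 12.1 and 11.2 FPKM in controls. Both genes were lower in both PARP1 KD libraries, with log2 differences of −1.20 for Dbp80 and −0.91 for Set1, and neither passed the adjusted threshold.

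The gene l(3)80Fg (chr3LHet:1181142-1396811), named for its lethal mutations, spans the longest stretch of any of the 49. It had 14.5 and 10.2 FPKM in PARP1 KD, against 19.0 and 48.3 FPKM in controls, with a log2 difference of −1.26 (SE 0.58). The groups did not overlap, although the controls themselves differed by more than the gap between the groups. The largest negative differences were of weakly expressed genes. The pseudogene CR40354 had 4.39 and 1.99 FPKM in PARP1 KD, against 13.5 and 10.1 FPKM in controls, and CG17162, which overlaps CG17159 and su(f) on XHet, had 1.03 and 0.213 FPKM, against 6.07 and 1.97 FPKM. CG40928, a model on U without a symbol, had 1.38 and 0.136 FPKM in PARP1 KD, against 7.72 and 1.80 FPKM in controls. For CG17162 and CG40928 the gap between the groups was smaller than the difference between the controls.

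The largest differences in the other direction were of models without a symbol. CG40660 (chrU:7999064-7999444) had 25.4 and 25.7 FPKM in PARP1 KD, against 12.0 and 15.7 FPKM in controls. CG40600 (chrU:5773554-5775792) had 29.7 and 24.2 FPKM in PARP1 KD, against 12.3 and 17.5 FPKM in controls. CG41541 (chrU:8954158-8954404) had 6.65 and 6.37 FPKM in PARP1 KD, against 2.50 and 4.30 FPKM in controls. The log2 differences of these models were 0.85, 0.83 and 0.80, and both PARP1 KD libraries lay above both controls in each. CG41336 on 3RHet, with 2.73 and 3.30 FPKM in PARP1 KD against 0.520 and 2.02 FPKM in controls, had the largest log2 difference, 0.90. Its mean reached 1 FPKM only through its PARP1 KD libraries, so the filter favoured this direction. No function is assigned to these models in the annotation used. The named genes had a median difference of −0.26 and the models without a symbol 0.14.

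Setting PJ34 beside controls asks what inhibition of the enzyme's activity does to the same genes. Of the 9 named genes with a mean over 100 FPKM 7 were higher in both PJ34 libraries, among them RpL15, UQCR-11, Alg-2 and Maf1. The other 2 (Tim23 and Tim17b) overlapped the controls. Among other genes over 100 FPKM 223 of 737 were higher in both. That mean includes the PJ34 libraries, through which Maf1 and CG41562, below 100 FPKM in both controls, entered the class. The means of CG40228 and BckdhB, also among the higher, likewise reached 100 FPKM only with the PJ34 libraries. Part of this count was therefore fixed by the choice of class. Negative differences were seen in 15 of the 21 models without a symbol, and in 5840 of all 7308 genes. Only CG41562 and CG40813 passed the adjusted threshold, and both rose, with 0.643% of all genes called. Both PJ34 libraries lay above both controls for 18 of the 49, against 13.1% of all genes, and below both for 17 of the 49, against 54.1%. By kind, 15 of the 28 named genes had both PJ34 libraries higher and 7 both lower. Of the 21 models without a symbol 3 had both higher and 10 both lower. Some of these directions were set by the filter. CG41373 and CG41584, both among the higher models without a symbol, reached a mean of 1 FPKM only through their PJ34 libraries. CG41541, CG41555 and CG41586, among the lower, were under 1 FPKM in both PJ34 libraries and passed through the others.

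**Figure D2:**
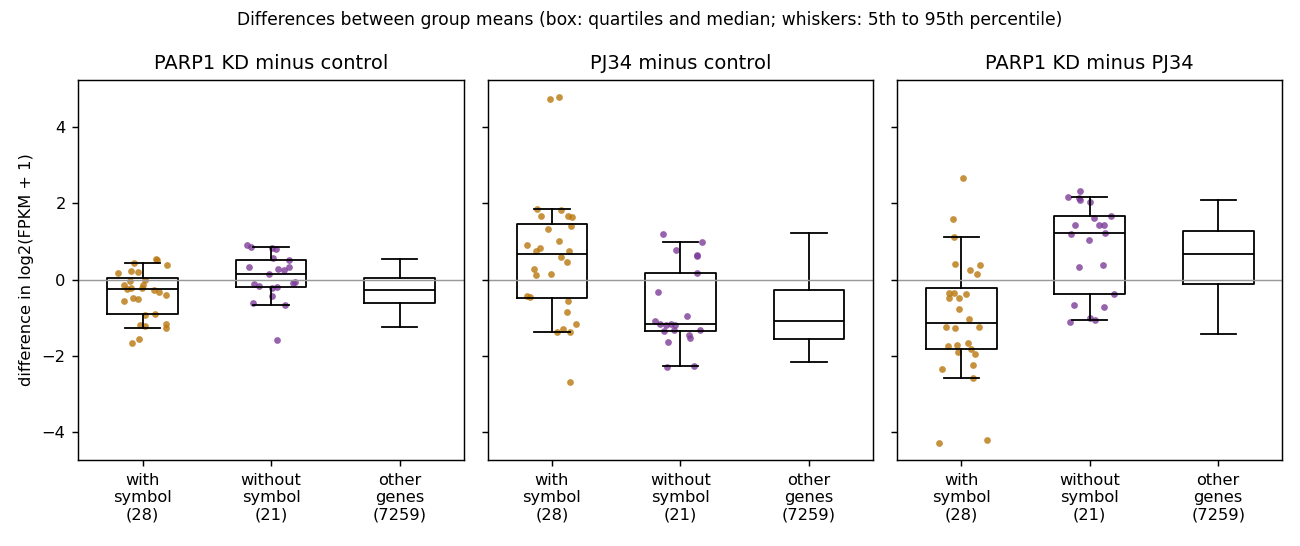
Differences between group means in log2(FPKM + 1) for the 28 genes with a symbol, the 21 models without one, and the 7259 other genes, in each comparison; points are genes, boxes show quartiles and the median, and whiskers the 5th to 95th percentile. The median of the genes with a symbol was 0.67 for PJ34 minus control and −1.13 for PARP1 KD minus PJ34, on the other side of 0 from that of the other genes in both.

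The median difference over the 49 was 0.12, where all genes had −1.08. The sign of that median rested on single libraries: it was −0.47 without PJ34 library 1, −0.14 without PJ34 library 2, and −0.35 without control library 1. Without CG41562 and CG40813 it was −0.32. For the 28 named genes the median was 0.67, with 19 of 28 above 0, and it stayed between 0.34 and 1.04 when each library was left out in turn. For the models without a symbol it was −1.18, close to that of all genes, and −0.65 without PJ34 library 2. Centring each library on its median moved the median to 1.80 for the named genes and to −0.04 for the models. The count past the threshold also moved with single libraries, to 30 of the 49 without PJ34 library 1 and to 8 without control library 2.

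CG41562 (chrU:5467095-5467810) had 15.4 and 14.6 FPKM in PARP1 KD, 267 and 356 FPKM in PJ34, and 7.10 and 14.6 FPKM in controls. CG40813 (chrU:3136261-3136976) had 13.4 and 12.7 FPKM in PARP1 KD, 224 and 299 FPKM in PJ34, and 6.02 and 12.5 FPKM in controls. In both genes the PJ34 libraries stood far above the other 4 libraries, which lay within a few FPKM of each other. The PJ34 means were 28.6 and 28.2 times the control means, with log2 differences of 4.78 (SE 0.52) and 4.74 (SE 0.53), each with an adjusted p of 0.00688 in limma. Under the 17 alternatives tried the adjusted p of each ran up to 0.0539, and it exceeded 0.05 only when every gene above 0 was tested. These 2 models are of equal span, and the current annotation places both on X. The ratio of CG41562 to CG40813 stayed between 1.15 and 1.19 in all 6 libraries. As such a constant ratio can come from near-identical copies that share reads, the 2 are best read as 1 signal whose split between them is uncertain.

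**Figure D3:**
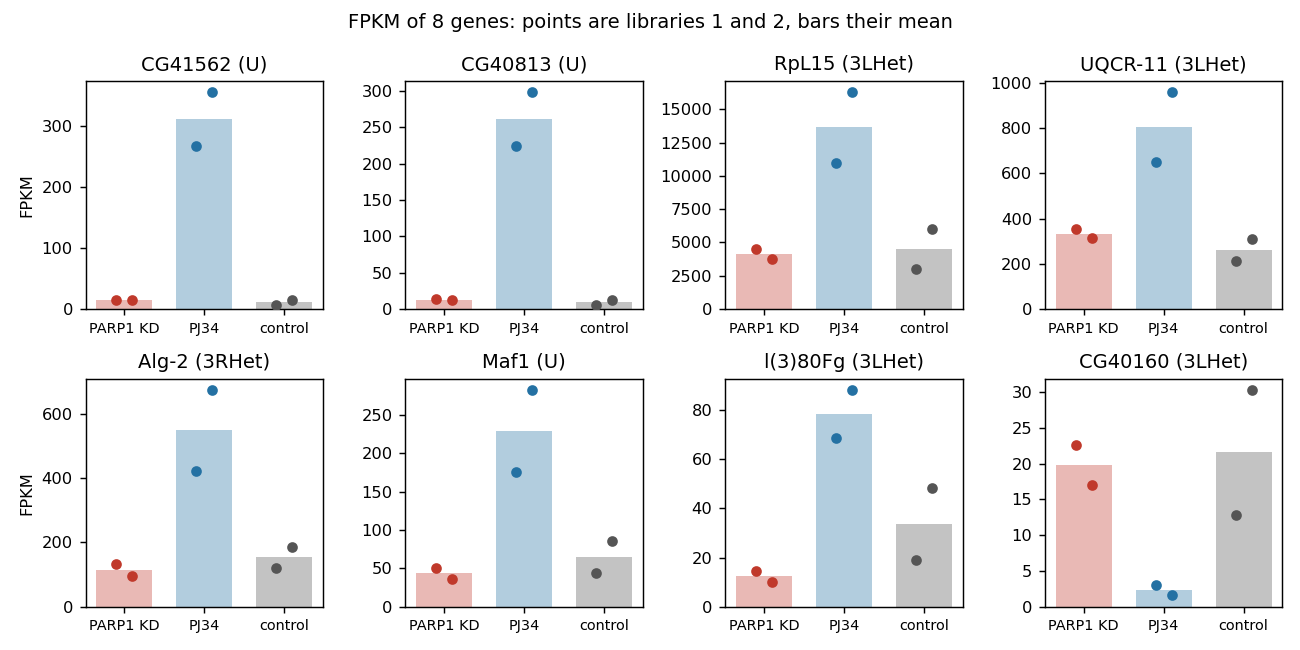
FPKM of 8 genes in PARP1 KD, PJ34 and control; points are libraries 1 and 2 and bars their mean, on linear axes that start at 0. CG41562 and CG40813 exceeded 200 FPKM only in PJ34, l(3)80Fg was lowest in PARP1 KD at 10.2 FPKM, and CG40160 was lowest in PJ34 at 1.60 FPKM.

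The mitochondrial genes of the set were all above 0 in this comparison. UQCR-11 (chr3LHet:606220-606827), a small subunit of respiratory complex III, had 353 and 314 FPKM in PARP1 KD, 651 and 959 FPKM in PJ34, and 210 and 310 FPKM in controls. ND-AGGG (chr3LHet:459585-460458), a subunit of complex I, had 71.0 and 53.0 FPKM in PARP1 KD, 127 and 175 FPKM in PJ34, and 65.2 and 82.6 FPKM in controls. For both genes each PJ34 library lay above the other 4. BckdhB (chrU:1178800-1184794), of the branched-chain keto acid dehydrogenase, had 91.2 and 67.3 FPKM in PARP1 KD, 137 and 191 FPKM in PJ34, and 101 and 135 FPKM in controls, where PJ34 library 1 barely exceeded control library 2. Tim23 (chr2LHet:167979-169120) and Tim17b (chr3RHet:1813574-1823984), which form the protein import channel of the inner membrane, overlapped between all groups. Tim23 had 144 and 107 FPKM in PARP1 KD, 132 and 194 FPKM in PJ34, and 133 and 160 FPKM in controls. The log2 differences between PJ34 and control were 1.63 for UQCR-11 (adjusted p 0.105), 1.01 for ND-AGGG, 0.46 for BckdhB, 0.27 for Tim17b and 0.13 for Tim23.

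Of the 5 genes of transcription and chromatin (Maf1, MED21, Set1, vtd and ATbp) 2 were higher and 2 lower in both PJ34 libraries. Over all genes the shares were 13.1% and 54.1%. The median difference of the 5 was −0.43, against −1.08 over all genes. Maf1 and MED21 were higher, as was Alg-2, and Set1 (−1.15) and vtd (−0.43) were lower. Alg-2 (chr3RHet:1895199-1899090), a calcium-binding protein with EF hands, had 132 and 96.0 FPKM in PARP1 KD, 421 and 675 FPKM in PJ34, and 122 and 187 FPKM in controls. Maf1 (chrU:1091917-1103370), a repressor of RNA polymerase III, had 50.8 and 36.8 FPKM in PARP1 KD, 176 and 283 FPKM in PJ34, and 44.4 and 85.3 FPKM in controls. MED21 (chr3LHet:600373-601422), a subunit of the Mediator complex that overlaps Set1, had 32.5 and 24.1 FPKM in PARP1 KD, 73.1 and 138 FPKM in PJ34, and 21.9 and 43.7 FPKM in controls. In each gene the PARP1 KD and control ranges overlapped and both PJ34 libraries lay above them. Their PJ34 means were 3.55, 3.54 and 3.22 times those of controls, with log2 differences of 1.82 (SE 0.45), 1.84 (SE 0.50) and 1.67 (SE 0.55). The adjusted p was 0.0995 for Alg-2, 0.110 for Maf1 and 0.132 for MED21, so none passed.

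Lower in PJ34 were CG40160, su(f) and a run of models on U. CG40160 (chr3LHet:1568488-1572483) had 22.5 and 17.1 FPKM in PARP1 KD, 3.07 and 1.60 FPKM in PJ34, and 12.8 and 30.3 FPKM in controls, with a log2 difference between PJ34 and control of −2.68 (SE 0.68, adjusted p 0.103 in limma). CG41421 (chrU:8007742-8007888), the strongest of the models without a symbol, had 317 and 376 FPKM in PARP1 KD, 138 and 86.1 FPKM in PJ34, and 274 and 273 FPKM in controls. The same order, PARP1 KD above control above PJ34, held without overlap for its neighbour CG41536, with 26.5 and 35.6 FPKM in PARP1 KD, 13.9 and 3.07 FPKM in PJ34, and 22.7 and 20.2 FPKM in controls. The gene su(f) (chrXHet:69194-80010), for a subunit of the cleavage factor that forms mRNA 3′ ends, had 19.2 and 16.6 FPKM in PARP1 KD, 14.5 and 3.88 FPKM in PJ34, and 28.4 and 16.4 FPKM in controls. CG40682 on U had 9.31 and 0.899 FPKM in PJ34, against 44.1 and 9.38 FPKM in controls, and its groups were separated by less than 0.1 FPKM.

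Beside other genes of like mean FPKM over all libraries the named genes had positive medians where the other genes had negative ones in 3 of 5 classes. As that mean includes PJ34, genes high in PJ34 move up a class, so the classes do not match genes by their control level. CG41562 and CG40813, with control means of 10.9 and 9.27 FPKM, fell in the classes over 100 and of 20 to 100 FPKM. At a mean of 20 to 100 FPKM the 9 named genes had a median difference between PJ34 and control of 0.91, and the 2253 other genes −1.01. Over 100 FPKM the medians were 1.63 for 9 named genes and −0.34 for 737 other genes. At 2 to 5 FPKM they were 0.12 for 3 named genes and −1.04 for 1004 other genes. At 5 to 20 FPKM they were alike, −1.33 for 6 named genes and −1.31 for 2843 other genes, and at 1 to 2 FPKM −0.57 for 1 named gene and −0.57 for 422 other genes. Transcript length moved with the PJ34 difference over all genes, with medians of 0.16, −0.86 and −1.41 for other genes under 1000, of 1000 to 2000 and over 2000 bases. In the same bins the named genes had 1.52 (10 genes), −0.00 (8 genes) and −0.16 (10 genes). After a length trend had been removed from each library the median of the 28 named genes was 0.92, with 23 of 28 above 0. Of the 49 genes 57.1% had a transcript length, too few for a check of length over the whole set, so it covers the named genes alone. These counts and medians describe the genes in these libraries and carry no test.

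**Figure D4:**
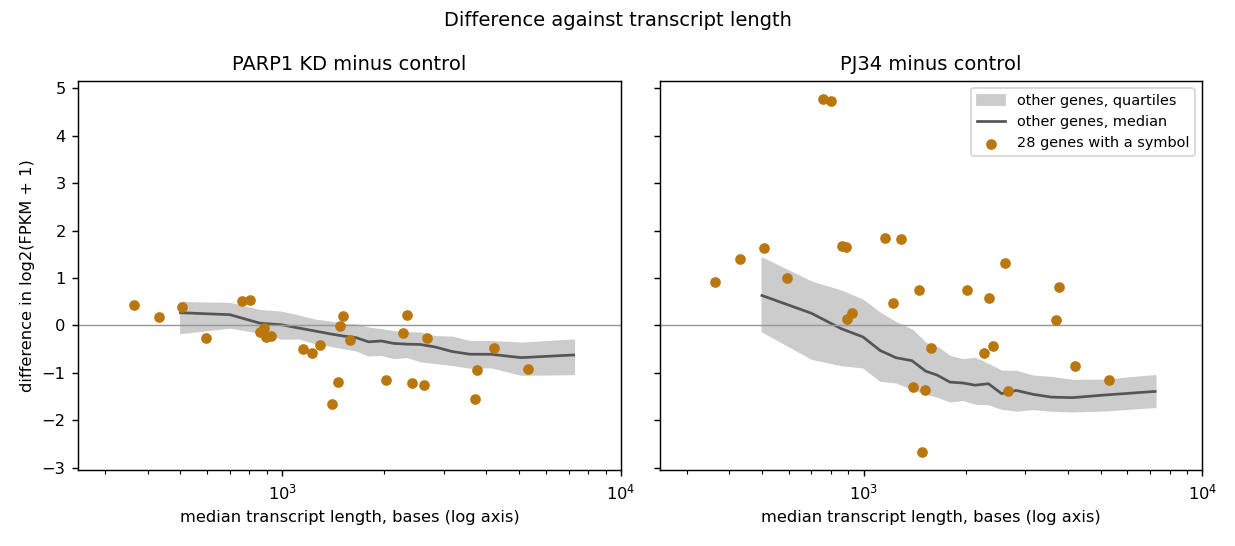
Difference in log2(FPKM + 1) against the median length of a gene's annotated transcripts, on a log axis, for PARP1 KD minus control and PJ34 minus control; the grey line and band are the median and quartiles of other genes in 20 bins of length, and points are the 28 genes with a symbol. In the right panel the band of other genes declines with length, most points lie above its median, and the highest are CG41562 at 4.78 and CG40813 at 4.74.

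Between PARP1 KD and PJ34 all 9 named genes over 100 FPKM, by a mean that includes PJ34, had lower mean log2 values in PARP1 KD. So did 314 of 737 other genes over 100 FPKM. Of the 21 models without a symbol 15 had higher values, as did 5282 of all 7308 genes, a like share. Of the 49, 5 passed the adjusted threshold, where 2.57% of all genes were called: CG41562, CG40813, Alg-2, Maf1 and l(3)80Fg, and all of them were lower in PARP1 KD. Both PARP1 KD libraries lay above both PJ34 libraries for 18 of the 49, against 43.8% of all genes, and below both for 21 of the 49, against 17.3%. The named genes had 16 of 28 lower and 4 higher without overlap, and the models without a symbol 5 lower and 14 higher of 21. Some of these directions were favoured by the filter. CG41373 and CG41584, among the lower models, reached a mean of 1 FPKM only through PJ34, and CG41336, among the higher, only through PARP1 KD. The median difference was −1.13 for the named genes and 1.22 for the models, and 0.67 over all genes. Without PJ34 library 2 the medians were −0.96 and 0.61.

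The PARP1 KD mean of l(3)80Fg was 0.158 times the PJ34 mean, a log2 difference of −2.58 (SE 0.58, adjusted p 0.0477 in limma). Its PJ34 libraries had 68.3 and 88.1 FPKM, so that the order ran PJ34, control and PARP1 KD with no overlap between any of the groups. Maf1 and Alg-2 had log2 differences of −2.34 (SE 0.50, adjusted p 0.0413) and −2.23 (SE 0.45, adjusted p 0.0365). CG41562 and CG40813 had −4.27 and −4.21, with adjusted p of 0.00999 and 0.0118. These calls depended on the libraries kept: none of the 49 passed without either PARP1 KD library, whereas 31 passed without PJ34 library 1, 10 without PJ34 library 2, 8 without control library 1 and 10 without control library 2. No gene higher in PARP1 KD passed; the nearest were CG41541, with 6.65 and 6.37 FPKM in PARP1 KD against 0.871 and 0.531 FPKM in PJ34 (adjusted p 0.0632), CG41421 (adjusted p 0.0668) and CG40160 (adjusted p 0.0691). The comparisons of PARP1 KD and of PJ34 with controls share both control libraries, and this one shares its libraries with both, so their values are set side by side only.

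By scaffold the median difference between PJ34 and control was 0.75 on 3LHet (13 genes), 0.54 on 3RHet (6 genes), 0.44 on 2LHet (2 genes), −0.57 on XHet (7 genes) and −1.18 on U (21 genes). Between PARP1 KD and control it was −0.26 on 3LHet, 0.11 on 3RHet, −0.69 on 2LHet, −0.26 on XHet and −0.07 on U. U holds the pair CG41562 and CG40813, which had the highest PJ34 differences, and 17 models without a symbol, while CG40160 with the lowest PJ34 difference lies on 3LHet. Of the 7 genes on XHet, none had both PJ34 libraries above both controls, where the share over all genes was 13.1%, too few genes to set XHet apart. After the length trend had been removed the XHet median was 0.585, with 5 of 7 above 0.

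Within groups the PARP1 KD libraries were the most alike. A difference of at least 1 in log2(FPKM + 1) between the 2 libraries of a group was seen in 1 of the 49 in PARP1 KD, 13 in PJ34 and 12 in controls, against 0.164%, 57.0% and 24.5% of all genes. In PJ34 the named genes were mostly higher in library 2 (17 of 28), whereas over all genes the median of library 2 was 1.19 lower on the log2 scale. The named genes had median levels of 26.3 and 18.0 FPKM in PARP1 KD, 70.7 and 102 FPKM in PJ34, and 25.3 and 44.8 FPKM in controls. The median of the named genes was thus highest in PJ34 library 2, where that of the other genes was lowest. The models without a symbol had medians of 3.02 and 3.08 FPKM in PARP1 KD, 2.15 and 1.28 FPKM in PJ34, and 3.34 and 2.99 FPKM in controls, lowest in PJ34 library 2.

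Of the 49 genes 18 had several annotated transcripts, and the division of FPKM among these differed between groups. The share of the leading transcript did not overlap between PARP1 KD and control in 13 of 18 genes (72.2%), against 60.3% of 2446 genes with several transcripts, between PJ34 and control in 6 of 18 (33.3%), against 30.8%, and between PARP1 KD and PJ34 in 12 of 18 (66.7%), against 67.6%. The last 2 shares were near those of all genes. Such shares are estimates of Cufflinks for transcripts that overlap for most of their length, and carry no test here.

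In l(3)80Fg the transcript RB held 17.6% and 18.0% of FPKM in PARP1 KD, 64.4% and 62.9% in PJ34, and 100% and 47.5% in controls. Expressed as a level, RB was lower in both PARP1 KD libraries than in the other 4. In Maf1 the transcript RB held 67.3% and 83.1% in PARP1 KD, under 0.001% in both PJ34 libraries, and 0.00187% and 22.8% in controls. In BckdhB the transcript RD held 47.1% and 65.5% in PARP1 KD, 0.817% and 0.883% in PJ34, and 0.280% and 10.9% in controls. CG12567 (chr2LHet:19622-32995) had 60.6% and 57.3% of its FPKM in RB in PARP1 KD, 5.96% and 0.00478% in PJ34, and 2.72% and 36.7% in controls. In Maf1, BckdhB and CG12567 control library 2 lay between control library 1 and the PARP1 KD libraries, so the controls differed from each other in the direction in which PARP1 KD differed from both.

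**Figure D5:**
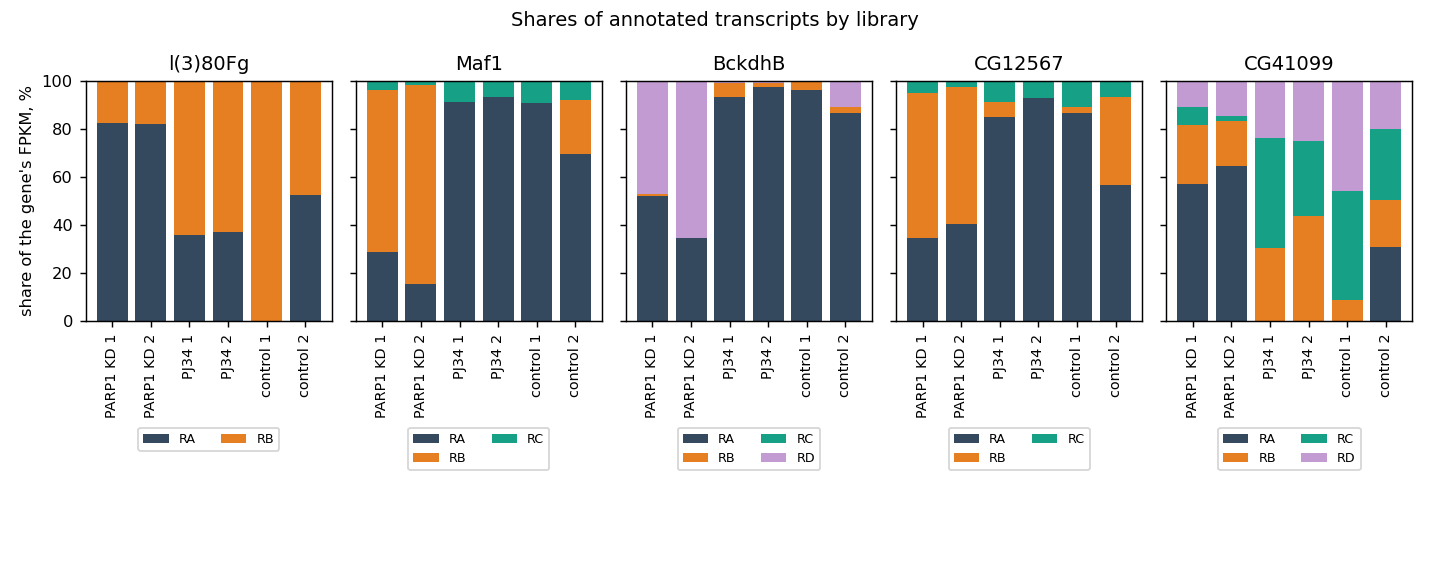
Share of each gene's FPKM held by its annotated transcripts (RA to RD), in percent, in each library of PARP1 KD, PJ34 and control. Maf1 RB made up 67.3% and 83.1% in PARP1 KD, and in CG41099 the transcript RA made up 57.2% and 64.7% in PARP1 KD and 30.8% in control library 2, and almost none in the other 3 libraries.

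The genes whose proteins build or bind heterochromatin were followed as a separate list. Of 24 listed genes 21 passed the filter, and none passed the adjusted threshold of limma in any comparison, with 1 at an unadjusted p under 0.05 in each. The medians were −0.39 between PARP1 KD and control, −1.36 between PJ34 and control and 0.75 between PARP1 KD and PJ34, beside −0.28, −1.08 and 0.67 over all genes. The gene of HP1a, the main HP1 protein, had 345 and 260 FPKM in PARP1 KD, 249 and 186 FPKM in PJ34, and 274 and 300.4 FPKM in controls. HP1b had 50.3 and 32.1 FPKM in PARP1 KD, 93.1 and 110 FPKM in PJ34, and 61.6 and 70.6 FPKM in controls, which is the order PJ34, control and PARP1 KD without overlap. The gene egg encodes a methyltransferase of lysine 9 of histone H3. It had 10.7 and 9.07 FPKM in PARP1 KD, 8.83 and 0.958 FPKM in PJ34, and 20.4 and 8.20 FPKM in controls. For egg the ranges of PARP1 KD and of PJ34 both overlapped that of the controls. Genes of chromosome 4, which is also largely heterochromatic, had a median difference of −0.99 between PARP1 KD and control and 0.18 between PJ34 and control over 54 genes.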

How the data were processed

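RNA-seq of 6 S2-DRSC libraries was analysed. The authors aligned reads to dm3 with TopHat2 2.0.10 and Bowtie2 2.1.0.0 and deposited FPKM values per transcript (Cufflinks 2.1.1, Cuffdiff2). Rows were summed per CG number (21081 rows, 14012 genes) and genes whose FPKM averaged 1 or more (7308) were fitted as log2(FPKM + 1) with limma 3.58.1 (R 4.3.3), with 1 mean per group, a trended prior and Benjamini-Hochberg adjusted p. FPKM is relative: a few abundant transcripts can shift all others. Symbols came from RefSeq (Release 6, names only) and transcript lengths from the BDGP6 annotation. Genes with values per library were the 8 of highest mean, all past adjusted p 0.05, the 5 largest non-overlapping differences each way per comparison, and genes of known role. Others named in addition were chosen after their values were seen. The genes, lists and tests were chosen with earlier results of these data known. Alternatives were other pseudocounts (0.1, 5), scalings, filters, fits and leaving out each library.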

Additional observations from a re-analysis of the deposited data

How the results depend on the processing

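Between PARP1 KD and control no gene of the 49 passed adjusted p 0.05 under any alternative tried, and 6 had an unadjusted p under 0.05. Without 1 library the count stayed at 0 and the median difference ran between −0.27 and 0.12. Between PJ34 and control the count of 2 became 0 with no filter on low values and 17 at an unadjusted p. It ran between 2 and 30 without 1 library. The median of 0.12 became 1.26 after median centring and 0.92 after length correction (28 genes), and ran between −0.47 and 0.18 without 1 library. Between PARP1 KD and PJ34 the count of 5 became 2 with a pseudocount of 0.1, 9 after quantile normalization, 3 after median centring, 13 after length correction, 0 with no filter, 9 with the 4 libraries alone, 2 without the trend and 29 at an unadjusted p, and ran between 0 and 31 without 1 library. The median of −0.37 became −1.12 after median centring and −1.11 after length correction, and ran between −0.59 and −0.15 without 1 library. The cause of these shifts was not tested. The labels do not tie the numbers of the treatment columns to samples, so libraries of the same number were not taken as pairs. Over all genes the difference between libraries 1 and 2 correlated at 0.539 between PJ34 and control. The correlation was only 0.0883 between PARP1 KD and PJ34 and 0.0824 between PARP1 KD and control. With the column number as a replicate block, chosen after seeing the data, the counts were 0, 21 and 25 of the 49 for PARP1 KD against control, PJ34 against control and PARP1 KD against PJ34, where 67, 3158 and 1730 of all genes passed. Over 30 named gene comparisons 17 values under other settings no longer passed the threshold, 15 newly passed it and 281 kept their side, and leaving out 1 library gave 10, 19 and 151. Genes below about 1 FPKM rest on few fragments, which limits the models on U most.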
